A study of Mus musculus with 10 samples.

Results

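The genes described here are 38 mouse enzymes and transporters of glycolysis, the tricarboxylic acid (TCA) cycle and the pentose phosphate pathway, chosen by their symbols. Of the 38, 37 had a row among the 18103 genes counted. Slc16a3, a lactate exporter, was not analysed here. Of the 37, 36 passed the filter on low counts together with 13149 genes in all. Slc2a3, a high-affinity glucose transporter, did not pass, with 0 to 8 counts per library.

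RNA was sequenced from mouse mesenchymal breast cancer cells on day 7, in 5 groups of 2 libraries, and the RNA came from 2 independent experiments per the labels. In Py2T long-term cells (Py2T-LT), the groups were control, MEK inhibitor, and BMP2 together with MEK inhibitor. In MTΔECad cells, a line named for its E-cadherin deletion, the groups were control and rosiglitazone. MEK is the kinase that activates ERK, BMP2 is a growth factor of the TGFβ family, and rosiglitazone activates PPARγ, the master regulator of fat cells. The labels' protocol gives 200 ng/ml BMP2, 40 µM PD98059 as the MEK inhibitor and 2 µM rosiglitazone as the doses in use, with DMSO in the control medium, but no dose for a single library. In the protocol's scheme for differentiating cancer cells, rosiglitazone joins BMP2 from a later day. The labels of the Py2T-LT libraries name no rosiglitazone, so whether those cultures held any is not known. Each line was 1 cell population, and no agent was given in both lines. BMP2 alone, rosiglitazone in Py2T-LT and the MEK inhibitor in MTΔECad are not among the groups.

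Glycolysis takes up glucose through the SLC2 transporters, traps it by phosphorylation and splits it to pyruvate, which lactate dehydrogenase turns into lactate for export through the SLC16 carriers. Pyruvate that stays in the cell enters mitochondria, where pyruvate dehydrogenase makes acetyl-CoA for the TCA cycle unless its kinases switch the complex off, and pyruvate carboxylase refills the cycle with oxaloacetate. The pentose phosphate pathway leaves glycolysis at glucose 6-phosphate and yields NADPH and ribose. In fat cells, citrate leaves the mitochondrion to supply acetyl-CoA for fatty acid synthesis, and NADPH comes from the pentose phosphate pathway, from malic enzyme and from cytosolic isocitrate dehydrogenase.

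The 10 libraries held 14659987 to 17249199 counts, and a single count was worth at most 0.0696 CPM (counts scaled by TMM to the library's size, per 1000000). Because the samples are bulk RNA, fewer cells of a kind and less RNA per cell cannot be told apart. The p-values measure only the spread between the 2 experiments within groups, pooled over the 5 groups. Replicates differed most in the Py2T-LT controls, so the pooled spread may be too small for contrasts that use them. Cdh1, the E-cadherin gene, stood at 36 and 31.7 CPM in the controls of Py2T-LT and at 2.57 and 2.25 CPM in those of MTΔECad. The mesenchymal gene Vim was at 2755 CPM or more in all 10 libraries, and summed markers of blood, endothelial and muscle cells reached at most 8.53, 1.56 and 4.71 CPM. Adipoq, the fat cell hormone adiponectin, was at 0.0616 and 0.5 CPM in Py2T-LT controls, 26.1 and 22.8 with MEK inhibitor, 20.9 and 21.6 with BMP2 and MEK inhibitor, 0.0696 and 0 in MTΔECad controls, and 101 and 90 with rosiglitazone. The summed CPM of cell-cycle genes was 831 and 829, then 1129 and 1157, then 358 and 343 in the Py2T-LT groups in that order, and 441 and 463 against 309 and 322 in MTΔECad. Both of these lists therefore moved with the treatments, and their part in the results below was not tested.

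All log2 fold changes below are given ± their standard error, with Benjamini-Hochberg adjusted p-values from edgeR's quasi-likelihood test over the 13149 genes, and a gene is called at an adjusted p under 0.05. In all, 6 contrasts were read, and several share libraries. The Py2T-LT controls serve 3 of those between groups, so their values are set side by side and not taken as independent of each other. With rosiglitazone, 11 of the 36 tested members rose and 4 fell, which is 30.6% and 11.1%, where 7.95% and 5.26% of all genes did (13.2% in either direction). With MEK inhibitor alone, 4 rose and 4 fell, 11.1% each, against 8.98% and 7.52% of all genes (16.5% in either direction). With BMP2 and MEK inhibitor against control, 6 rose and 9 fell, 16.7% and 25%, close to the 19.1% and 19.4% of all genes (38.5% in either direction). Against MEK inhibitor alone, 5 rose and 9 fell with BMP2 added, 13.9% and 25%, next to 17.9% and 19.4% of all genes (37.3% in either direction). Between the control cultures, 23 members were higher and 5 lower in MTΔECad, 63.9% and 13.9%, where 29.3% and 31.7% of all genes were (61.0% in either direction). With library totals as the only scaling, those splits became 7 and 4 for MEK inhibitor alone, 4 and 13 for BMP2 added to it, and 19 and 8 between the lines, where the share of higher genes among all called ones fell from 48.1% to 36.9%.

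**Figure D1:**
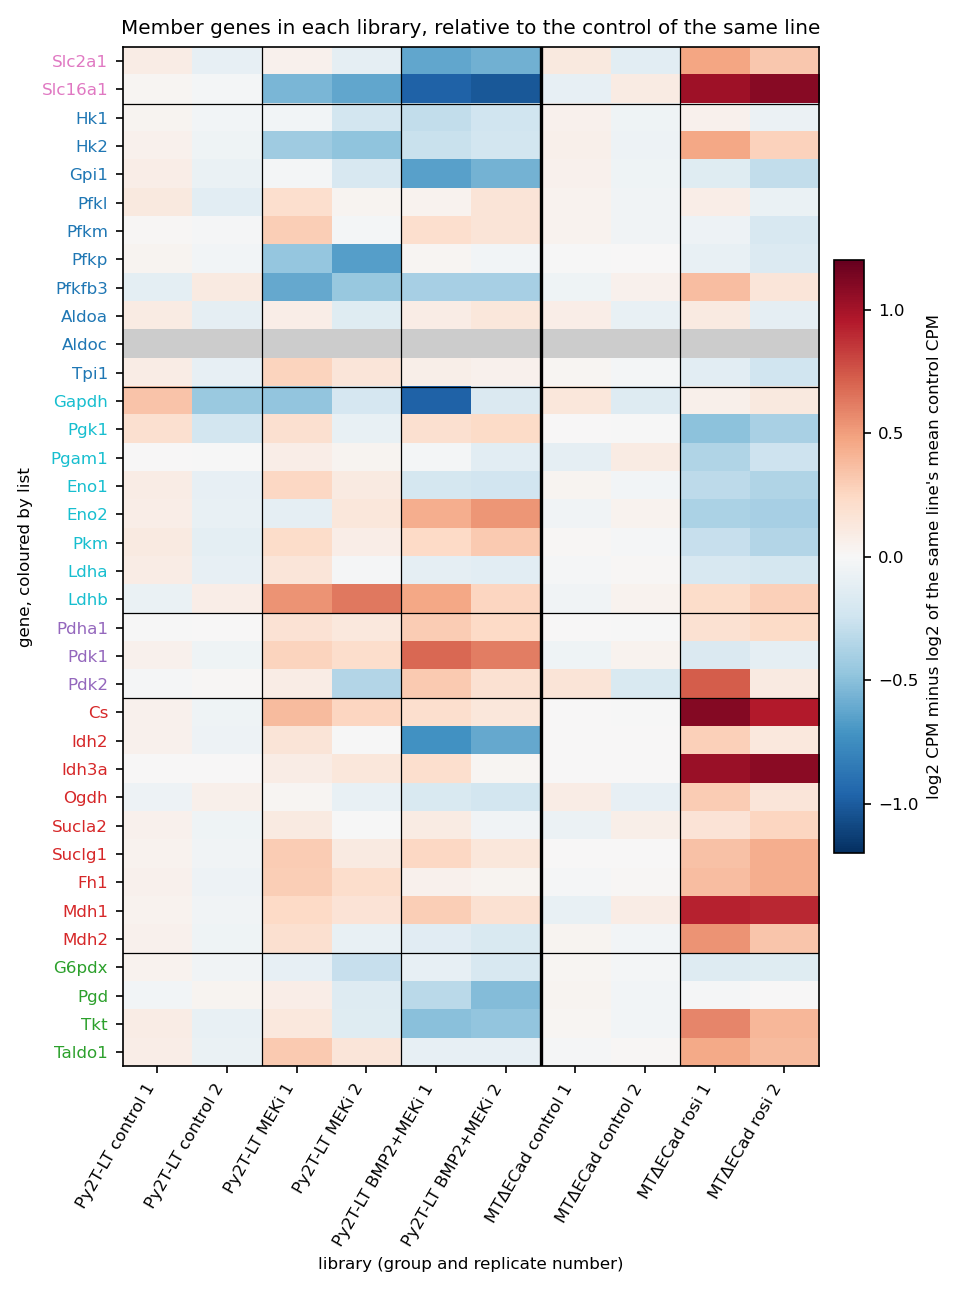
Heat map of the 36 tested genes (rows, coloured by the step of metabolism they belong to) in the 10 libraries (columns), as log2 CPM minus the log2 of the mean control CPM of the same cell line; Aldoc is grey because it had 0 or 1 count in each MTΔECad library. Rows with strong colour include Slc16a1 in every treatment, Cs, Idh3a and Mdh1 with rosiglitazone, and Slc2a1, Gpi1, Idh2 and Pdk1 with BMP2 and MEK inhibitor.

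The median log2 fold change of the 36 members, beside that of all genes, was 0.06 beside 0.01 with MEK inhibitor, 0.01 beside 0.00 with BMP2 and MEK inhibitor, -0.08 beside 0.01 for BMP2 added to MEK inhibitor, 0.15 beside -0.02 with rosiglitazone, and 0.36 beside -0.03 for MTΔECad against Py2T-LT controls. To compare treatments between lines, the response to BMP2 and MEK inhibitor in Py2T-LT was subtracted from the response to rosiglitazone in MTΔECad, 2 contrasts that share no library. In this difference 15 members were higher and 4 lower, 41.7% and 11.1%, where 13.3% and 11.6% of all genes were (24.8% in either direction). The agents and the lines differ together in this test, so the agent and the cell line cannot be told apart in it.

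The lactate carrier and the widespread glucose transporter fell in Py2T-LT cells given BMP2 and MEK inhibitor and rose in MTΔECad cells given rosiglitazone. Slc16a1, which encodes the proton-linked carrier MCT1 for lactate and pyruvate, was at 261 and 253 CPM in Py2T-LT controls, 176 and 167 CPM with MEK inhibitor, and 131 and 127 CPM with BMP2 and MEK inhibitor. The 3 groups did not overlap, and the decrease against control was -0.59 ± 0.08 (adjusted p = 1.2e-05) with MEK inhibitor and -0.99 ± 0.08 (adjusted p = 1.7e-09) with both agents. BMP2 added to the inhibitor gave a further -0.41 ± 0.08 (adjusted p = 3.0e-04). In MTΔECad, Slc16a1 was at 103 and 118 CPM in controls and at 224 and 235 CPM with rosiglitazone. The treated cells thus came close to the level of Py2T-LT controls. The rise was 1.05 ± 0.08 (adjusted p = 2.8e-09), 2.08-fold, and the difference from the Py2T-LT response was 2.04 ± 0.11 (adjusted p = 1.9e-11).

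Slc2a1, which encodes GLUT1, was at 78.5 and 68.8 CPM in Py2T-LT controls, 76.2 and 68.2 CPM with MEK inhibitor, and 47.7 and 49.5 CPM with BMP2 and MEK inhibitor. Only the group with BMP2 lay apart, at -0.60 ± 0.10 against control (adjusted p = 4.6e-05) and -0.57 ± 0.10 against MEK inhibitor (adjusted p = 9.1e-05). In MTΔECad it was at 113 and 95.2 CPM in controls and 145 and 130 CPM with rosiglitazone, a rise of 0.40 ± 0.09 (adjusted p = 0.0056). It was not called without rosiglitazone replicate 1 (adjusted p = 0.083) or control replicate 2 (adjusted p = 0.15). The responses of the lines differed by 1.00 ± 0.14 (adjusted p = 1.0e-05). Slc2a3 had 8 and 7 counts in Py2T-LT controls and 0 to 5 in the other libraries, too few for a comparison.

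Promoter sequence is shown for 5 genes: the transporters Slc16a1 and Slc2a1 and the hexokinase Hk2, which hold the word searched here and stand at the entry and exit of glycolysis, and, further down, Cs and Mdh1. The stretches are the 250 bases before the transcription start from RefSeq (GRCm38.p6), 5′ to 3′ on the gene's strand, and these 250 bases were searched on both strands for the words ACGTG and CACGTG, the cores of hypoxia-response elements and of E-boxes bound by MYC and by USF. Capitals mark matches to ACGTG or its reverse complement CACGT, and an ACGTG inside CACGTG is counted in both. Slc16a1 (chr3:104638414-104638663, plus strand), Slc2a1 (chr4:119108495-119108744, plus strand) and Hk2 (chr6:82774455-82774704, minus strand) read:
Slc16a1: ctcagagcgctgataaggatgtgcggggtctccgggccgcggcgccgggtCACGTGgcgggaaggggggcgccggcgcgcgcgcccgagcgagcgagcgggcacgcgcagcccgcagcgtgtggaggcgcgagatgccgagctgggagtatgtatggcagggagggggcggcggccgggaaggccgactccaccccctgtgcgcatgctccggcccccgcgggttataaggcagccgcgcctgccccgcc
Slc2a1: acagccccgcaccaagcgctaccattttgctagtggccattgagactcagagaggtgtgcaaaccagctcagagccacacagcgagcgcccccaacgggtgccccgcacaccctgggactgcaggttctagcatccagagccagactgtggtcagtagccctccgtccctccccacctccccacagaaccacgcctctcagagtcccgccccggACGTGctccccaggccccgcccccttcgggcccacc
Hk2: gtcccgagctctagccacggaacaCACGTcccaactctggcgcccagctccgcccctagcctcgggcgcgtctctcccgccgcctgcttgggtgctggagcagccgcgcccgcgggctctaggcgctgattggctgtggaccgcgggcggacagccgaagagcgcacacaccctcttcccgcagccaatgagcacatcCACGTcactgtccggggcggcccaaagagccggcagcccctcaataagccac

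Of the 35 members with an entry, 13 held ACGTG in at least 1 such stretch of 250 bases (37.1%), where 18.5% of the 27025 genes in the RefSeq table did, and 12 members had more than 1 stretch. CACGTG was found for 6 members (17.1%) and 6.86% of all genes. The 27025 genes had 32851 stretches in all. A gene counts if any of its stretches holds the word, so genes with more stretches had more chances. Shares of members and of all genes, here and below, are not adjusted for this. A match describes these letters only and is not evidence of binding.

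Upper glycolysis moved gene by gene, not as a block. Among its 10 tested members, 3 fell and none rose with MEK inhibitor, 3 fell and none rose with BMP2 and MEK inhibitor, 1 rose and none fell with rosiglitazone, and 5 were higher and 3 lower in MTΔECad than in Py2T-LT controls. Over all genes, 7.52% fell and 8.98% rose with MEK inhibitor, and 19.4% and 19.1% with BMP2 and MEK inhibitor. With rosiglitazone 7.95% rose and 5.26% fell, and 29.3% were higher and 31.7% lower in MTΔECad controls. Hk2, the inducible hexokinase, was at 133 and 124 CPM in Py2T-LT controls, 95.4 and 91.9 CPM with MEK inhibitor, and 107 and 110 CPM with BMP2 added. It fell by 0.46 ± 0.08 with MEK inhibitor (adjusted p = 3.6e-04), and both groups lay below the controls. With both agents the value was -0.25 ± 0.08 (adjusted p = 0.02). This call ended without BMP2 and MEK inhibitor replicate 1 (adjusted p = 0.088) or 2 (adjusted p = 0.053) or without control replicate 1 (adjusted p = 0.13). In MTΔECad, Hk2 was at 106 and 97 CPM in controls and 140 and 123 CPM with rosiglitazone, 0.38 ± 0.08 (adjusted p = 0.0025). That call ended without rosiglitazone replicate 1 (adjusted p = 0.082) or control replicate 2 (adjusted p = 0.068). Hk1, the constitutive hexokinase, was at 185 to 232 CPM in all libraries. Its call against control was -0.27 ± 0.08 for both agents (adjusted p = 0.011) and ended without BMP2 and MEK inhibitor replicate 1 or control replicate 1 (adjusted p = 0.07 each).

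Gpi1, which converts glucose 6-phosphate to fructose 6-phosphate, was at 304 and 273 CPM in Py2T-LT controls, 284 and 253 CPM with MEK inhibitor and 184 and 195 CPM with BMP2 and MEK inhibitor. Only the group with BMP2 lay apart, at -0.61 ± 0.08 against control (adjusted p = 4.7e-06) and -0.50 ± 0.08 against MEK inhibitor (adjusted p = 5.6e-05). With rosiglitazone its values were 353 and 318 CPM against 403 and 377 CPM, which did not pass the test. Pfkp, the platelet-type phosphofructokinase, was at 46.9 and 44.7 CPM in Py2T-LT controls, 33.2 and 29 CPM with MEK inhibitor, and 46.4 and 44.7 CPM when BMP2 was present as well. It fell by 0.56 ± 0.09 with the inhibitor (adjusted p = 7.2e-05) and was 0.55 ± 0.09 higher with BMP2 added (adjusted p = 2.6e-05), back in the range of the controls. In MTΔECad, Pfkp was at 339 and 342 CPM in controls, 7.44-fold the level of Py2T-LT controls (2.89 ± 0.08, adjusted p = 2.7e-17), and at 320 and 303 CPM with rosiglitazone. The overlapping gene Pitrm1 was at 107 to 130 CPM in all 10 libraries and did not differ detectably between the control cultures (adjusted p = 0.39).

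Pfkfb3, which makes the activator of phosphofructokinase, was at 7.51 and 8.74 CPM in Py2T-LT controls and 5.3 and 5.91 CPM with MEK inhibitor (-0.53 ± 0.17, adjusted p = 0.034). The call ended without either MEK inhibitor library (adjusted p = 0.19 and 0.08), without control replicate 2 and with DESeq2 (adjusted p = 0.14). Aldoc, the brain-type aldolase, rested on few reads: 45 and 26 counts in Py2T-LT controls, 17 and 31 with MEK inhibitor, 54 and 60 with both agents, and 1, 1, 0 and 1 in the MTΔECad libraries. It was 2.50-fold higher with BMP2 than with the inhibitor alone (adjusted p = 0.002), and 33.4-fold lower in MTΔECad than in Py2T-LT controls (95% counting interval 8.92 to 281). Aldoa, the main aldolase, was among the members with the most RNA per length, at 267 RPKM (CPM per kilobase of exon) in Py2T-LT controls and 393 RPKM in MTΔECad controls, where Pkm, pyruvate kinase, was at 245 and 248 RPKM. It was 0.56 ± 0.10 higher in MTΔECad controls and passed the test in no treatment.

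**Figure D2:**
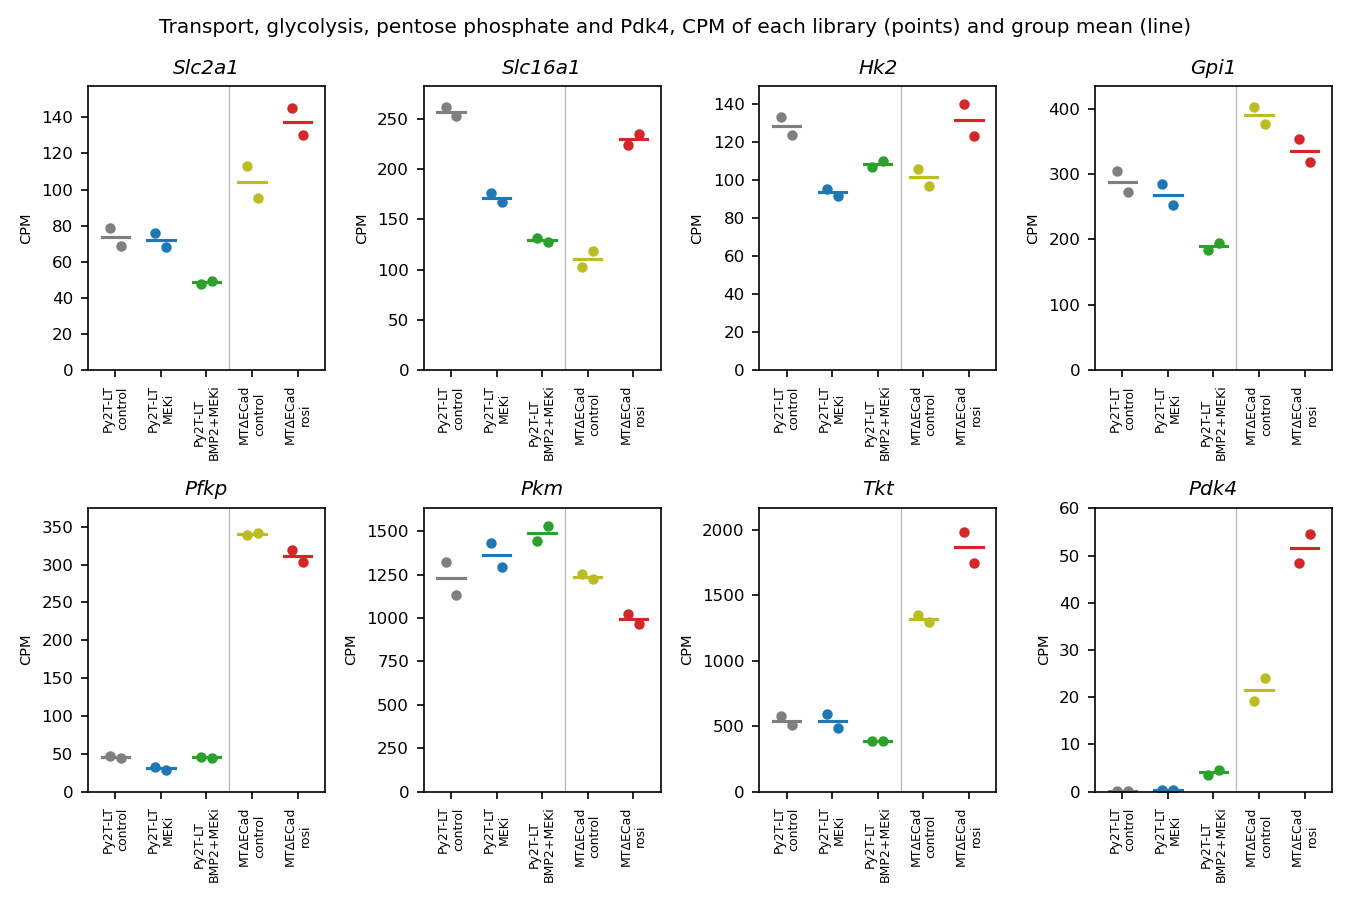
CPM of 8 genes of transport, glycolysis, pyruvate dehydrogenase control and the pentose phosphate pathway; each point is 1 library and each line the mean of 2, with groups along the x axis. Slc16a1 steps down from 261 to 127 CPM across the Py2T-LT groups and reaches 235 CPM with rosiglitazone, while Pfkp separates the lines, at 342 CPM or less in MTΔECad and 46.9 CPM or less in Py2T-LT.

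Of the 8 tested members of lower glycolysis, 4 fell with rosiglitazone and none rose, and the median log2 fold change of the 8 was -0.31. Over all genes, 5.26% fell and 7.95% rose. Pkm was at 1252 and 1225 CPM in MTΔECad controls and 1024 and 968 CPM with rosiglitazone, and Eno1, the main enolase, at 102 and 97.6 against 80.2 and 77.6 CPM. Both groups lay apart, at -0.31 ± 0.08 for Pkm (adjusted p = 0.011) and -0.34 ± 0.08 for Eno1 (adjusted p = 0.0089). Pgk1 (28.5 and 28.3 against 20.2 and 21.7 CPM, -0.44 ± 0.13, adjusted p = 0.028) and Eno2 (26 and 27.5 against 20.6 and 20.3 CPM, -0.39 ± 0.12, adjusted p = 0.034) were also called. Ldhb went the other way without passing the test (29.8 and 31.7 against 35.8 and 37.5 CPM, 0.25, adjusted p = 0.15). No member stayed called lower in every fit with 1 library left out. Leaving out rosiglitazone replicate 2 or control replicate 1 ended all 4 calls (adjusted p = 0.07 and 0.096 for Eno1, 0.099 and 0.093 for Pkm), leaving out control replicate 2 ended that of Pkm (adjusted p = 0.056), and those of Pgk1 and Eno2 ended without any 1 of the 4 libraries and with DESeq2 (adjusted p = 0.058 and 0.14).

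In Py2T-LT cells Pkm moved the other way, at 1321 and 1135 CPM in controls, 1434 and 1296 CPM with MEK inhibitor and 1445 and 1530 CPM with BMP2 and MEK inhibitor. With both agents it was 0.28 ± 0.08 above control (adjusted p = 0.0099), a call that ended without BMP2 and MEK inhibitor replicate 2 (adjusted p = 0.076) or control replicate 2 (adjusted p = 0.18). The responses of the lines differed for Pkm by -0.59 ± 0.12 (adjusted p = 5.3e-04) and for Eno2, the neuronal enolase, by -0.88 ± 0.20 (adjusted p = 0.0019). Eno1 was at 77.8 and 70.2 CPM with MEK inhibitor and 56.4 and 55.6 CPM with BMP2 added, -0.40 ± 0.09 (adjusted p = 8.5e-04). Ldhb, the lactate dehydrogenase subunit of oxidative tissues, was at 10 and 11.2 CPM in Py2T-LT controls and 15.4 and 16.4 CPM with MEK inhibitor, a rise of 0.58 ± 0.12 (adjusted p = 0.002). Ldha, the subunit of glycolytic tissues, was at 468 to 564 CPM in all Py2T-LT libraries and passed the test in no treatment. In lower glycolysis, 6 of 8 members were higher and none lower in MTΔECad than in Py2T-LT controls, led by Eno2 (4.79-fold, 2.26 ± 0.14, adjusted p = 8.8e-12) and Ldhb (2.90-fold, 1.54 ± 0.12, adjusted p = 4.9e-10). Over all genes, 29.3% were higher and 31.7% lower there.

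The counts of this group carry a further limit, since many of its genes have near-identical pseudogenes. Of all stretches of 50 bases in the annotated transcripts, 82.5% in Gapdh, 72.2% in Eno1, 68% in Pgk1 and 41.5% in Pgam1 also occurred in transcripts of other genes. The share was 34.4% in Pkm, 27% in Ldhb and 16.6% in Ldha. Outside lower glycolysis it was 25.3% in Gpi1, 17.1% in Pfkp, 16.9% in Pdha1 and 13.5% in Aldoa. It was 10.9% in Taldo1, 10.7% in G6pdx, 7.51% in Tpi1 and 4% in Cs. Gapdh, one of the most abundant messages of most cells, was at only 0.87 to 2.16 CPM in the 10 libraries and at 0.412 RPKM in Py2T-LT controls, where Aldoa was at 267 and Pkm at 245 RPKM. A stretch of the Gapdh coding sequence (bases 405 to 474 of 999, GENCODE M21 transcripts) holds 50 bases, in capitals, that also stand in transcripts of 84 other genes, so a read within them has more than 1 possible origin:
Gapdh: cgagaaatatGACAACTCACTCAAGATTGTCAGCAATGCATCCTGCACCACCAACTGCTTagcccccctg
How reads with several possible origins were counted is not given in the sources used here. The values of Gapdh, Eno1, Pgk1 and Pgam1 are therefore uncertain, and levels cannot be compared between them and other genes. Levels of the other genes with shared stretches may also be affected, to a degree that was not tested.

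At the entry into mitochondria, the enzyme and one of its kinases both rose in Py2T-LT cells given BMP2 and MEK inhibitor. Pdha1, the catalytic subunit of pyruvate dehydrogenase, was at 312 and 316 CPM in Py2T-LT controls, 354 and 342 CPM with MEK inhibitor and 387 and 370 CPM with BMP2 and MEK inhibitor, which was 0.27 ± 0.07 above control (adjusted p = 0.0033). Pdk1, a kinase that inactivates the complex, was at 64 and 59.7 CPM in controls, 74.5 and 71.5 CPM with the inhibitor and 100 and 94.8 CPM with both agents. Its 3 groups did not overlap, with 0.66 ± 0.08 against control (adjusted p = 9.0e-07) and 0.42 ± 0.08 for BMP2 added to the inhibitor (adjusted p = 2.3e-04). With rosiglitazone, Pdk1 was at 83.8 and 87.7 CPM against 91.7 and 97.8 CPM in controls and did not pass the test, and the responses differed between the lines by -0.80 ± 0.11 (adjusted p = 1.3e-05). None of the 3 tested members of this group passed in MTΔECad cells with rosiglitazone, where Pdha1 was 0.20 higher (adjusted p = 0.053) and Pdk2 ranged from 25 to 46.8 CPM over the 4 libraries.

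The pathway's other genes for pyruvate entry, 12 of them tested, moved further: 8 rose and 1 fell with rosiglitazone, 4 rose and none fell with BMP2 and MEK inhibitor, and 3 rose and none fell with MEK inhibitor. Those shares were 66.7% and 8.33%, 33.3% and 0%, and 25% and 0%. Of all genes, 7.95% and 5.26%, 19.1% and 19.4%, and 8.98% and 7.52% did so. Pcx, the pyruvate carboxylase that refills the TCA cycle, was at 15 and 13.5 CPM in Py2T-LT controls, 56.8 and 45.9 CPM with MEK inhibitor, 79.7 and 82.4 CPM with both agents, 69.8 and 60.5 CPM in MTΔECad controls, and 465 and 378 CPM with rosiglitazone. It rose in each treatment, by 1.85 ± 0.13 (adjusted p = 3.3e-08), 2.51 ± 0.13 (adjusted p = 7.6e-11) and 2.70 ± 0.11 (adjusted p = 2.1e-11) in that order, and the difference between the last 2 responses did not pass (0.19 ± 0.17, adjusted p = 0.49). Pdk4, the pyruvate dehydrogenase kinase induced by fatty acids and PPAR activators, had 3 and 1 counts in Py2T-LT controls, 4 and 5 with MEK inhibitor, and 54 and 79 with both agents, a ratio of 33.4 to control with a 95% counting interval of 12.7 to 124. In MTΔECad it was at 19.1 and 24 CPM in controls and 48.5 and 54.6 CPM with rosiglitazone (1.25 ± 0.13, adjusted p = 3.4e-07).

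The TCA cycle rose broadly in MTΔECad cells. With rosiglitazone 6 of its 9 tested members rose and none fell, with a median log2 fold change of 0.40 beside -0.02 over all genes. These were 66.7% and 0%, beside 7.95% and 5.26% of all genes. Cs, citrate synthase, the enzyme that starts the cycle, was at 302 and 301 CPM in MTΔECad controls and 647 and 583 CPM with rosiglitazone. Idh3a, the catalytic subunit of the NAD-dependent isocitrate dehydrogenase of the cycle, was at 112 and 112 CPM against 229 and 237 CPM, and Mdh1, the cytosolic malate dehydrogenase of the malate-aspartate shuttle, at 201 and 227 CPM against 405 and 401 CPM. Treated libraries were all far above the controls, and these 3 members rose 2.04-fold (1.03 ± 0.08, adjusted p = 2.6e-09), 2.09-fold (1.06 ± 0.08, adjusted p = 1.4e-09) and 1.88-fold (0.91 ± 0.08, adjusted p = 1.9e-08). The other 3 rose less and stayed called without any 1 library: Mdh2, the mitochondrial malate dehydrogenase (149 and 142 against 212 and 183 CPM, 0.44 ± 0.09), Fh1, fumarase (81.9 and 83.8 against 107 and 112 CPM, 0.40 ± 0.08), and Suclg1, a subunit of succinyl-CoA ligase (85.6 and 85.6 against 109 and 116 CPM, 0.39 ± 0.08). Idh2, Ogdh and Sucla2 had values of 0.21 to 0.23 that did not pass, although treated libraries lay above controls for each.

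**Figure D3:**
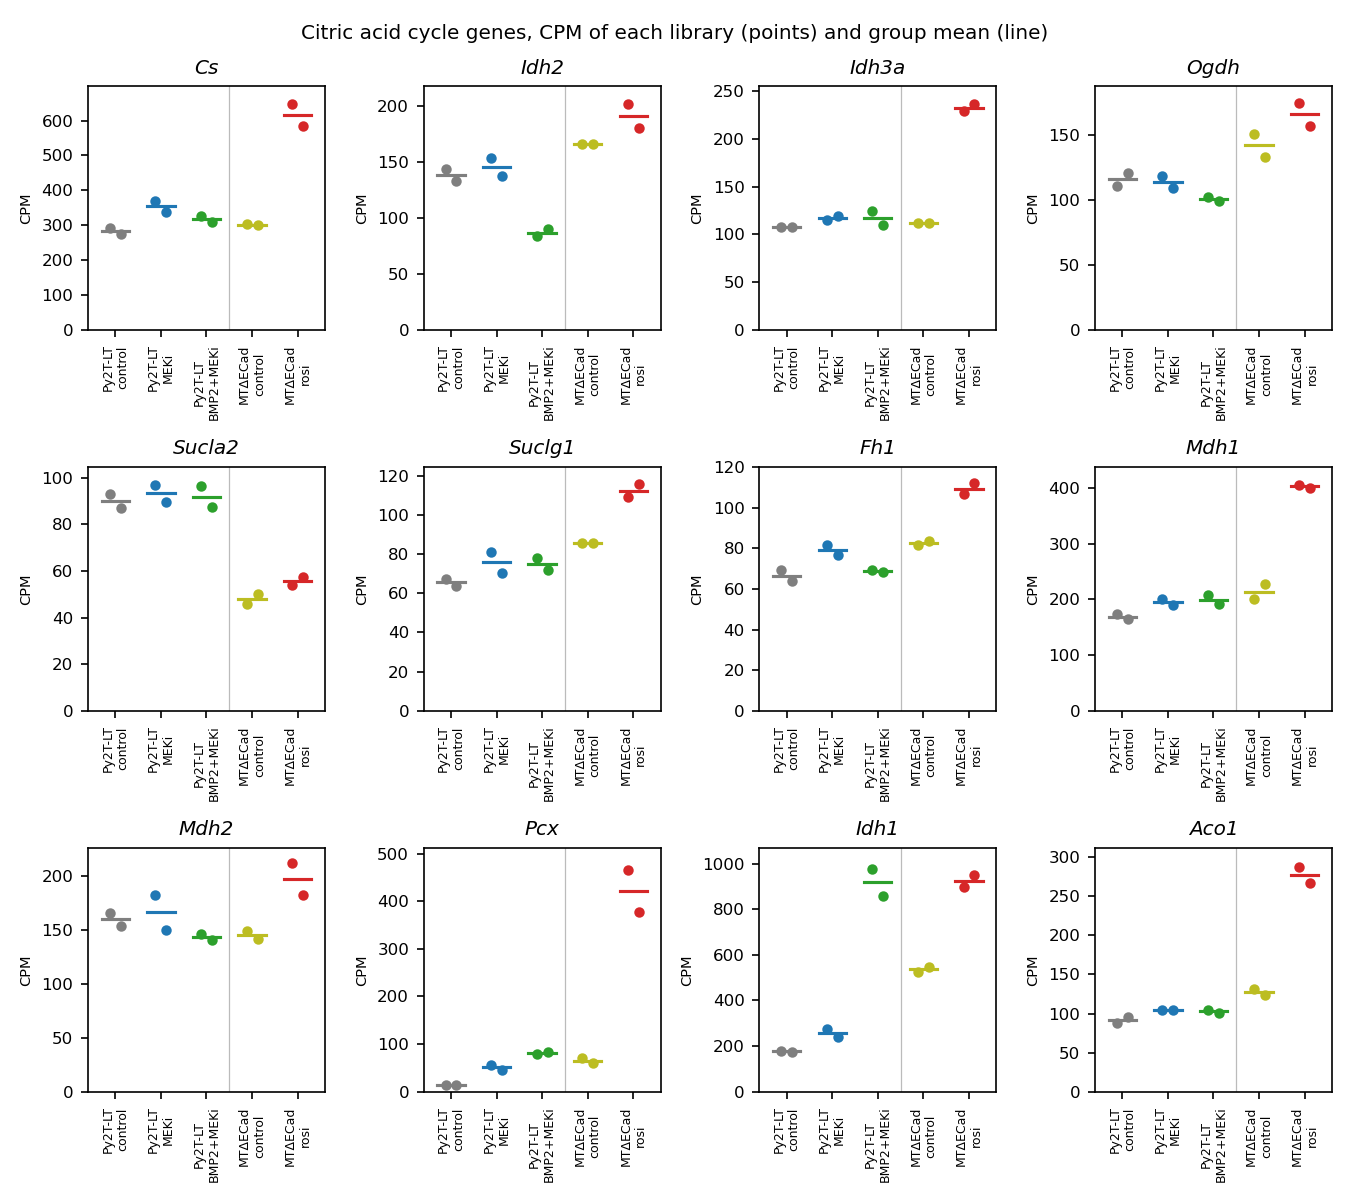
CPM of 9 genes of the TCA cycle and of Pcx, Idh1 and Aco1, with each point 1 library and each line the mean of 2 libraries; each panel has its own y axis, and groups stand along the x axis. In MTΔECad controls Cs and Idh3a are near their levels in Py2T-LT controls, and Mdh1 is 1.27-fold higher. Cs, Idh3a and Mdh1 are well above those levels with rosiglitazone (647 and 583 CPM for Cs), while Idh2 drops to 83.9 and 90.2 CPM only where BMP2 was added.

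Py2T-LT cells did not show this rise. With BMP2 and MEK inhibitor, 1 of the 9 rose, 1 fell and the median was 0.04, and with MEK inhibitor 2 rose and none fell. The shares with both agents were 11.1% each, beside 19.1% and 19.4% of all genes. With MEK inhibitor they were 22.2% and 0%, beside 8.98% and 7.52%. Cs was at 293 and 273 CPM in controls, 369 and 338 CPM with MEK inhibitor (0.32 ± 0.08, adjusted p = 0.0051) and 325 and 310 CPM with both agents (0.17, not called). The call for the inhibitor ended without its replicate 1 (adjusted p = 0.091) or control replicate 2 (adjusted p = 0.079). Idh2, the NADP-dependent mitochondrial isocitrate dehydrogenase, was at 144 and 133 CPM in controls, 154 and 138 CPM with MEK inhibitor, and 83.9 and 90.2 CPM with BMP2 and MEK inhibitor. Only the group with BMP2 lay apart, at -0.67 ± 0.08 against control (adjusted p = 1.2e-06) and -0.74 ± 0.08 against MEK inhibitor (adjusted p = 3.0e-07). Idh3a stayed within 108 to 124 CPM in the 6 Py2T-LT libraries. Mdh1 was at 174 and 164 CPM in controls and 207 and 192 CPM with both agents (0.24 ± 0.08, adjusted p = 0.019). It was not called without BMP2 and MEK inhibitor replicate 1 (adjusted p = 0.19) or control replicate 2 (adjusted p = 0.13). The rosiglitazone response exceeded the response to BMP2 and MEK inhibitor for 7 of the 9 and fell below it for none, led by Idh3a (0.94 ± 0.11, adjusted p = 9.5e-07), Idh2 (0.88 ± 0.12, adjusted p = 6.5e-06) and Cs (0.86 ± 0.11, adjusted p = 3.4e-06). Over all genes, 13.3% were higher and 11.6% lower in this difference. For Fh1 and Ogdh this difference (0.36 and 0.43) was not called once single libraries were left out, such as rosiglitazone replicate 1 for Ogdh (adjusted p = 0.064).

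Cs and Mdh1 are shown because they rose most among the TCA genes with a RefSeq promoter entry. Capitals mark CCAAT, the word bound by NF-Y, or its reverse complement ATTGG, in the 250 bases before the start of Cs (chr10:128337477-128337726, plus strand) and Mdh1 (chr11:21571935-21572184, minus strand), GRCm38.p6:
Cs: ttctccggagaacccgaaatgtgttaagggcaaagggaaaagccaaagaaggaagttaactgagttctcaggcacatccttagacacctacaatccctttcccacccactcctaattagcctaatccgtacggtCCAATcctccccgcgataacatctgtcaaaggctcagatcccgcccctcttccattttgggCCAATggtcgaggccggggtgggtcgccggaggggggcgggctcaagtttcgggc
Mdh1: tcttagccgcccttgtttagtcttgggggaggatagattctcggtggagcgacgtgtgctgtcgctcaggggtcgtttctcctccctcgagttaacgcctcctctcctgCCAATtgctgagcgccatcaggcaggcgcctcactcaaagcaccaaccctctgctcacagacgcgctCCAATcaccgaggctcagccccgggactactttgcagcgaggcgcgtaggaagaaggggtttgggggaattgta
CCAAT or its reverse complement stood in at least 1 window of 15 of the 35 members (42.9%) and of 37.5% of all genes. The nuclear receptor half-site AAGGTCA was in a window of 1 member, Eno1 (2.86%), and of 4.7% of all genes. Neither share says anything about which factor acted.

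Other enzymes of the cycle and its carriers, 20 genes tested, followed in MTΔECad cells: 13 rose and 1 fell with rosiglitazone, with a median of 0.37. These were 65% and 5%, beside 7.95% and 5.26% of all genes. The largest rises were those of Slc25a10, the mitochondrial dicarboxylate carrier (20.1 and 19.7 against 56.7 and 45 CPM, 1.35 ± 0.14), and Aco1, the cytosolic aconitase (131 and 124 against 287 and 267 CPM, 1.12 ± 0.08). With BMP2 and MEK inhibitor 3 of these 20 rose and 6 fell. Beside 19.1% and 19.4% of all genes, this was 15% and 30% of the 20, with a median of -0.03. Idh1, the cytosolic isocitrate dehydrogenase that yields NADPH, stood apart from them, at 178 and 175 CPM in Py2T-LT controls, 275 and 241 CPM with MEK inhibitor and 978 and 858 CPM with both agents. It rose 5.20-fold with both agents (2.38 ± 0.08, adjusted p = 6.9e-15), and from 525 and 547 CPM to 897 and 951 CPM with rosiglitazone (0.79 ± 0.08, adjusted p = 3.1e-07). In Py2T-LT cells Idh1 thus rose where Idh2, its mitochondrial counterpart, fell. Adipocyte markers summed to 612 and 602 CPM in Py2T-LT controls, 1014 and 982 CPM with MEK inhibitor, 1385 and 1228 CPM with both agents, 1846 and 1714 CPM in MTΔECad controls and 4120 and 3800 CPM with rosiglitazone. Lpl, lipoprotein lipase, made up most of the sum in the control cultures (570 and 553 CPM in Py2T-LT, 1706 and 1572 CPM in MTΔECad), where Plin1, the perilipin of fat cells, was near 0 (0.185 and 0.375, then 0.417 and 0.313 CPM). Plin1 reached 31.9 and 33.7 CPM with BMP2 and MEK inhibitor and 293 and 217 CPM with rosiglitazone. The part of these markers in the values of the TCA genes was not tested.

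Some mitochondrial genes differed between the control cultures of the lines, as did 61.0% of all genes. Of the 9 tested TCA members, 5 were higher and 1 lower in MTΔECad than in Py2T-LT controls. These were 55.6% and 11.1%, beside 29.3% and 31.7% of all genes. All 3 of the pyruvate dehydrogenase group were higher. The calls of Idh2, Ogdh, Fh1 and Pdha1 (0.19 to 0.31) ended with library totals as the only scaling (adjusted p = 0.17, 0.094, 0.056 and 0.44), which left Suclg1 and Mdh1 as the TCA members higher there. With 1 library left out, the call of Pdha1 ended for each of the 4 libraries (adjusted p = 0.058 to 0.083), that of Idh2 without Py2T-LT control replicate 2 (adjusted p = 0.084), and that of Ogdh without Py2T-LT control replicate 1 (adjusted p = 0.057) or MTΔECad control replicate 1 (adjusted p = 0.12). Sucla2, the ATP-forming subunit of succinyl-CoA ligase, was at 92.9 and 86.9 CPM in Py2T-LT controls and 45.8 and 50.3 CPM in MTΔECad controls, 1.87-fold lower (-0.90 ± 0.09, adjusted p = 1.5e-08), and the treated libraries of each line stayed near their controls. Its partner Suclg1 was 0.38 higher in MTΔECad. Pdk2, the widespread kinase of pyruvate dehydrogenase, was at 13.6 and 13.9 CPM against 31.6 and 25 CPM, 2.05-fold higher in MTΔECad (1.04 ± 0.21, adjusted p = 0.0012), and Slc16a1 was 2.33-fold lower there (-1.22 ± 0.08, adjusted p = 2.6e-11).

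**Figure D4:**
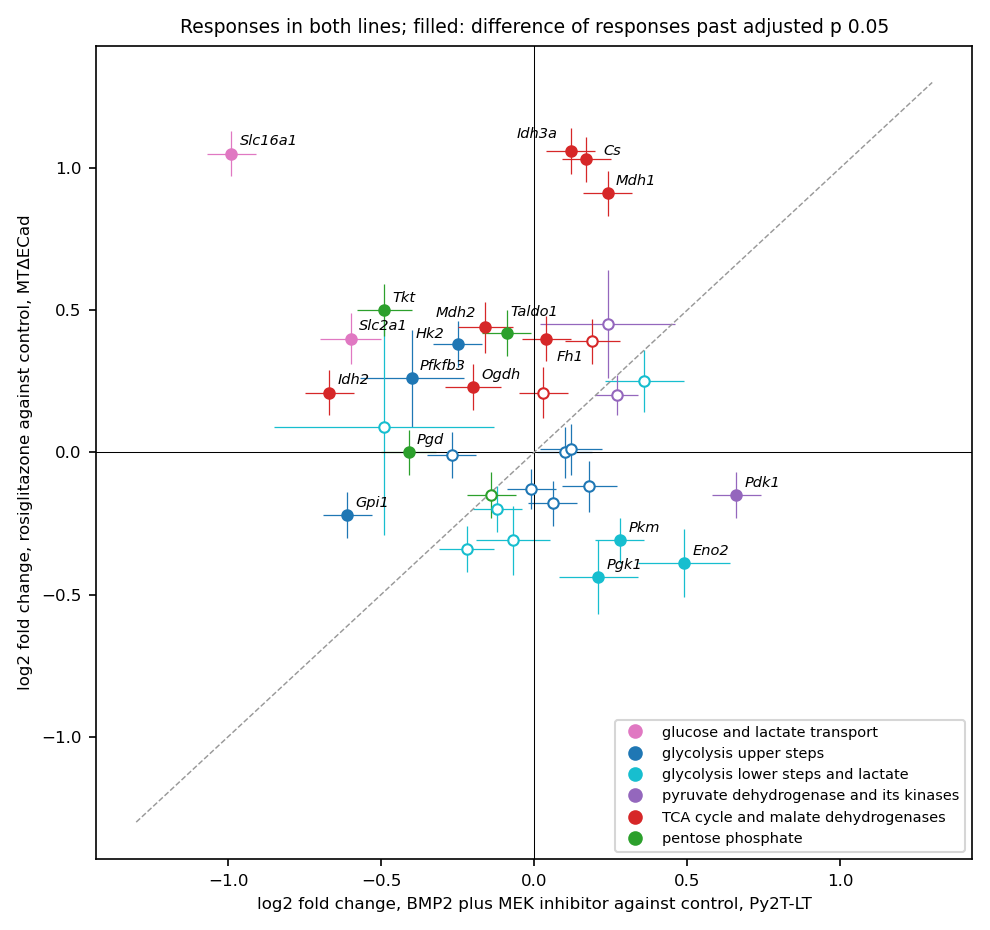
Log2 fold change with BMP2 and MEK inhibitor in Py2T-LT (x axis) against log2 fold change with rosiglitazone in MTΔECad (y axis) for the tested members except Aldoc; bars are ± 1 SE, the dashed line marks equal responses, and filled points are genes whose 2 responses differed at an adjusted p under 0.05. Slc16a1 lies farthest from the line, at -0.99 and 1.05, and Cs, Idh3a and Mdh1 lie above it and Pdk1 and Pkm below it.

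Of the 4 pentose phosphate genes, transketolase was called in opposite directions in the lines. With rosiglitazone 2 of the 4 rose and none fell, and with BMP2 and MEK inhibitor 2 fell and none rose. Over all genes, 7.95% rose and 5.26% fell with rosiglitazone, and 19.1% rose and 19.4% fell with BMP2 and MEK inhibitor. Tkt, transketolase of the non-oxidative branch, was at 575 and 509 CPM in Py2T-LT controls, 592 and 489 CPM with MEK inhibitor, 384 and 391 CPM with both agents, 1348 and 1296 CPM in MTΔECad controls, and 1988 and 1748 CPM with rosiglitazone. The groups with BMP2 and with rosiglitazone each lay apart from their controls, at -0.49 ± 0.09 (adjusted p = 2.1e-04) and 0.50 ± 0.09 (adjusted p = 4.7e-04), and the responses differed by 0.98 ± 0.13 (adjusted p = 6.0e-06). In RPKM, Tkt went from 73.8 in Py2T-LT controls to 180 in MTΔECad controls and 254 with rosiglitazone. With rosiglitazone, citrate synthase was at 106 RPKM and Pkm at 199 RPKM, and Pkm was at 245 and 248 RPKM in the control cultures. By the longest transcript, Tkt was at 580, citrate synthase at 205 and Pkm at 409 RPKM with rosiglitazone.

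Taldo1, transaldolase of the same branch, rose with rosiglitazone from 121 and 123 CPM to 167 and 159 CPM (0.42 ± 0.08, adjusted p = 8.6e-04) and had 109 CPM in both libraries with BMP2 and MEK inhibitor against 123 and 110 in controls, not called. Of the NADPH-yielding oxidative branch, Pgd, 6-phosphogluconate dehydrogenase, was at 112 and 117 CPM in Py2T-LT controls and 91.6 and 80 CPM with both agents (-0.41 ± 0.09, adjusted p = 6.1e-04). With rosiglitazone Pgd was at 170 and 173 CPM against 176 and 168 CPM in controls. G6pdx, the entry enzyme glucose-6-phosphate dehydrogenase, passed the test in no treatment, with 191 to 238 CPM in Py2T-LT and 392 to 442 CPM in MTΔECad. Ikbkg, which overlaps G6pdx on the other strand, was at 124 to 199 CPM in the 10 libraries. It was 0.33 higher with rosiglitazone (adjusted p = 0.0034) and 0.19 higher in MTΔECad than in Py2T-LT controls (adjusted p = 0.031). Use of strand in the counts is not given, and the part of Ikbkg in the G6pdx values was not tested. Between the control cultures 3 of the 4 pentose phosphate genes differed, where 61.0% of all genes did. Tkt was 2.44-fold higher in MTΔECad (1.28 ± 0.09, adjusted p = 1.6e-10), G6pdx 1.88-fold (0.91 ± 0.08, adjusted p = 1.4e-09) and Pgd was 0.59 ± 0.09 higher (adjusted p = 4.8e-06), while Taldo1 was not called (0.06, adjusted p = 0.51). Cell-cycle genes were lower in the group with BMP2 and in MTΔECad as given above, and their part here was not tested.

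Among the other pentose phosphate genes, sedoheptulokinase (Shpk), which feeds the non-oxidative branch, was called in each of the 6 contrasts. It was at 33.7 and 37.7 CPM in Py2T-LT controls, 14.5 and 14.5 CPM with MEK inhibitor, 10.2 and 9.42 CPM with both agents, 5.71 and 7.89 CPM in MTΔECad controls, and 13.8 and 15.3 CPM with rosiglitazone. It fell by 1.87 ± 0.14 with both agents (adjusted p = 4.1e-10) and rose by 1.09 ± 0.15 with rosiglitazone (adjusted p = 2.6e-05), with no overlap between treated and control libraries. Of the 8 tested genes of this list, 2 fell and none rose with BMP2 and MEK inhibitor, where 19.4% and 19.1% of all genes did. With rosiglitazone 2 rose and none fell, where 7.95% and 5.26% of all genes did. The other that rose was Prps1, which makes the ribose donor for nucleotides (24.1 and 25.7 against 46.5 and 43.4 CPM).

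Per length, the balance of isozymes set the lines apart and shifted with treatment. Of the summed RPKM of the phosphofructokinases Pfkl, Pfkm and Pfkp, Pfkp made up 5.67% ± 0.286 (SD, n = 2) in Py2T-LT controls and 29.5% ± 0.955 (SD, n = 2) in MTΔECad controls, and Pfkl 62.6% and 35.7%. Of the NADP-dependent isocitrate dehydrogenases, Idh1 held 54.3% in Py2T-LT controls, 62.3% with MEK inhibitor, 90.7% with BMP2 and MEK inhibitor, 75.1% in MTΔECad controls and 81.8% with rosiglitazone. Ldhb held 4.23% of lactate dehydrogenase in Py2T-LT controls, 8.57% in MTΔECad controls and 11.4% with rosiglitazone, so Ldha made up most of it in each group. Pdk4 held 0.129% of the 4 kinases in Py2T-LT controls, 3.58% with both agents, 14% in MTΔECad controls and 28.8% with rosiglitazone. Lengths were those of all annotated exons together, and with the longest transcript in their place most shares moved. Pdk4 was then at 10.9% and 23% in MTΔECad, Ldhb at 2.83%, 5.82% and 7.82% in the groups named, and Idh1 at 49.8% in Py2T-LT controls, level with Idh2 (50.2%). The order of the groups named here was the same for Pdk4 and for Pfkp. For Idh1 and Ldhb, each in a family of 2 genes, the choice of length cannot alter that order.

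**Figure D5:**
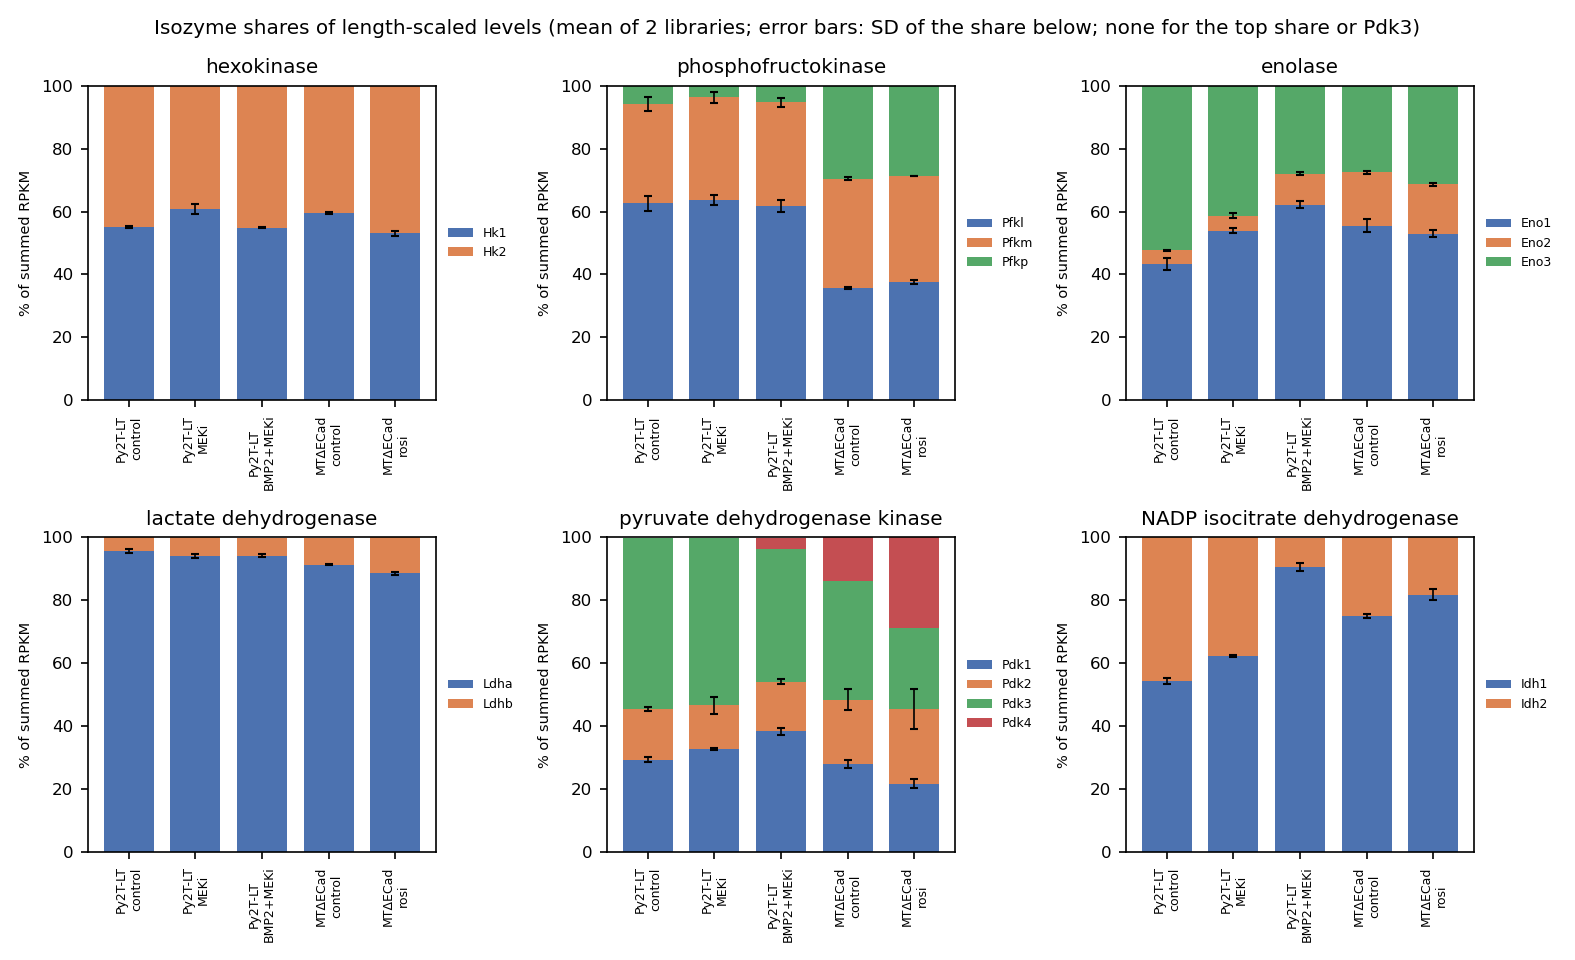
Share of the summed RPKM (percent, y axis) that each isozyme held in the 5 groups (x axis), for 6 enzyme families, as stacked bars of the mean of 2 libraries with SD bars. The phosphofructokinase panel shows Pfkp at 5.67% in Py2T-LT and 29.5% in MTΔECad controls, and the isocitrate dehydrogenase panel shows Idh1 at 90.7% with BMP2 and MEK inhibitor. The enolase panel includes Eno1, whose level is uncertain because other genes share most of its sequence, so its shares are not interpreted.

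The remaining pathway lists were glycolysis genes beyond the members, glycogen metabolism, targets of hypoxia-inducible factor, gluconeogenesis, and regulators. Over all genes, 8.98% rose and 7.52% fell with MEK inhibitor, and 19.1% and 19.4% with BMP2 and MEK inhibitor. With rosiglitazone it was 7.95% and 5.26%. Several of the list counts below for both agents lie near the shares of all genes. Of 12 other glycolysis genes, 3 rose and 2 fell with BMP2 and MEK inhibitor, led by Eno3, the muscle enolase (28.8 and 22.4 against 7.9 and 8.31 CPM, -1.66 ± 0.14, adjusted p = 6.2e-09). With rosiglitazone none of these rose and 2 fell, Slc2a6, a lysosomal hexose transporter (-0.75), and Bsg, the chaperone of MCT1 (-0.33). The call of Slc2a6 ended without control replicate 1 (adjusted p = 0.13). Of 11 glycogen genes, 5 rose and 2 fell with both agents, including Ugp2, which makes UDP-glucose (282 and 298 against 543 and 510 CPM, 0.86 ± 0.08). With rosiglitazone 2 of them rose, including Pygb, glycogen phosphorylase (63.5 and 61.6 against 176 and 154 CPM, 1.40 ± 0.08). Of 18 hypoxia-inducible factor targets, 6 rose and 1 fell with MEK inhibitor, 5 rose and 4 fell with both agents, and 3 rose and none fell with rosiglitazone. Car9, a carbonic anhydrase and common marker of hypoxia, was at 1.17 and 0.812 CPM in Py2T-LT controls, 5.04 and 4.22 CPM with MEK inhibitor and 4.08 and 4.3 CPM with both agents. The others that rose with both agents did so 1.2- to 1.62-fold. The 4 that fell were Car12 (3.84-fold, on 5 against 20 summed counts), P4ha2 (2.81-fold), Ak4 (1.75-fold) and Egln3 (1.52-fold).

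Pck1, which makes phosphoenolpyruvate for glyceroneogenesis in fat cells, had 103 and 94 counts with rosiglitazone and 0 in each of the MTΔECad control libraries, at least 33.3-fold higher against a floor of 3 counts per library. Of 13 regulators, 2 rose and none fell with rosiglitazone: Ppargc1a and Ppargc1b, the PGC-1 coactivators of mitochondrial genes. Ppargc1a was at 6.96 and 5.76 CPM in MTΔECad controls and 14.1 and 17.8 CPM treated (1.33 ± 0.15, adjusted p = 1.5e-06), and Ppargc1b at 5.22 and 4.94 against 13 and 11.9 CPM (1.29 ± 0.17). In the 6 Py2T-LT libraries Ppargc1a was at 19.5 to 26.4 CPM, and the difference of MTΔECad from Py2T-LT controls was -1.68 ± 0.15.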

How the data were processed

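Gene counts of 10 mouse RNA-seq libraries, deposited by the authors as whole numbers in 1 table, were used. The submitters' processing notes name STAR and mm10. The counting tool, its annotation, its use of strand and its handling of reads with several origins: not given in the sources used here. The labels' protocols name both a total RNA kit and poly-A+ RNA, and RNAs without a poly-A tail summed to 8643 to 14876 CPM per library. Rows were matched to RefSeq symbols (18057 of 18103; the other 46 held 0.799% of counts).

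Counts were fitted with edgeR 4.0.16 in R 4.3.3 (filterByExpr, TMM scaling, robust quasi-likelihood, all 10 libraries, 1 mean per group), adjusted by Benjamini-Hochberg over 13149 genes, threshold 0.05. The script was tested on simulated data. RPKM used GENCODE M21 exon lengths. DESeq2 1.42.0 was an alternative. Groups came from the labels, and replicates were compared: within groups, counts differed by more than sampling noise (chi-square per gene 5.27 to 16.4, the highest between the Py2T-LT controls). Folds against few counts carry exact 95% intervals, which cover counting error only.

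The members and gene lists were chosen with earlier results of these data known. Members named in full are the up to 3 highest and 3 lowest called per list and comparison whose groups do not overlap, and from other lists up to 2 genes with the largest changes. A gene that the rule names in 1 comparison is also given in others.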

Additional observations from a re-analysis of the deposited data

How the results depend on the processing

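No called member changed its direction under any alternative. Of the 117 values of members that were not called, 44 changed sign under at least 1 alternative, among them Pkm and Cs between the lines. Among 4925 values of single genes under alternatives, 4480 kept their status, 407 lost a call and 38 gained one. The 4480 include values of members that were not called in the main fit and stayed so, and are therefore not a count of calls that held. For MEK inhibitor, members called higher were 4, but 7 with library totals, 2 with DESeq2, 2 with only the compared groups in the fit, and 1 to 5 with 1 library left out. For BMP2 and MEK inhibitor against control, members called higher were 3 to 7 with 1 library left out, and against MEK inhibitor they were 3 with DESeq2 and 3 to 4 with 1 library left out. With rosiglitazone, members called lower were 2 with DESeq2 and 0 to 2 with 1 library left out, and genes called over the whole table were 1737, or 1112 to 1338 with 1 library left out (1112 without MTΔECad control replicate 1). Between the lines, members called lower were 8 with library totals. Called members that held in every alternative were 4 of 8 with MEK inhibitor, 8 of 15 with BMP2 and MEK inhibitor, 10 of 14 for BMP2 added to MEK inhibitor, 9 of 15 with rosiglitazone, 23 of 28 between the lines and 13 of 19 in the difference of responses.

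The labels do not say whether a replicate number marks a shared experiment. Deviations of libraries with the same number correlated at -0.106 to 0.1 over the 10 pairs of groups. Such low values cannot show whether the samples were paired. With the replicate number as a block, members called higher and lower were 6 and 4 for MEK inhibitor, 6 and 10 for BMP2 and MEK inhibitor, 6 and 10 for BMP2 added, 13 and 4 for rosiglitazone, 23 and 5 between the lines, and 14 and 4 for the difference of responses, and genes called were 2245, 5148, 5024, 1833, 8091 and 3396. Depth limits genes at few counts: 3 counts were at most 0.209 CPM.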
